A study of Homo sapiens with 17 samples.

Results

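MED25 shRNA A was compared with a lentiviral control in PC3, an established cell line derived from human prostate cancer. All 786 genes in the authors' deposited table of this comparison are described here, out of 1400 genes listed in at least 1 of the 4 tables of the series. The group labelled MED25 shRNA A holds 3 libraries from early passage PC3 cells that received a lentivirus carrying short hairpin RNA sequence A against MED25. The lentiviral control holds 3 libraries from cells that received a lentivirus with a luciferase shRNA, according to the sample labels, while the series design text calls the control an empty vector. Both groups were harvested 7 days after infection, total RNA was sequenced, and the remaining 11 libraries of the 17 carried MED25 shRNA B, ETV4 shRNAs or a retroviral control. Whether the replicates were separate cultures is not stated, and levels of each library were not analysed here, so no depth, replicate spread or test of a single gene can be given and PC3 marker levels could not be examined.

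MED25 is a subunit of Mediator, the complex that links DNA-bound activators to RNA polymerase II. Its activator-interaction domain binds transcription factors, among them ETV4 and related members of the ETS family. A gene lower after MED25 loss can depend on it directly or through other genes, and the values below do not separate these.

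Each value is a log2 ratio of MED25 shRNA A over control in the authors' deposited table, with the sign turned, since the table gives control over knockdown. A value of −1 is a 2-fold decrease. The table also holds a score, headed as an adjusted p, on a scale that no source used here gives. Larger scores were taken here as stronger calls, a direction that is likewise not stated. Every listed gene was lower after MED25 shRNA A, so the selection by the authors fixed the direction of all 786 values. A gene missing from the table cannot be called unchanged.

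MED25 itself (ENSG00000104973, chromosome 19) stood at −0.96 in the authors' deposited table, 51.6% of control, with a score of 102. For MED25 shRNA B, against the same control libraries, the authors' deposited table gave MED25 at −1.71 with a score of 318. The direction was read from the column header together with the sign of MED25, so this decrease is no independent check of the labels. The next coding gene on chromosome 19, FUZ, a planar cell polarity effector on the opposite strand, stood at −0.77 in the authors' deposited table. Among the 33 Mediator subunits, MED22 was the other one listed, at −0.64 in the authors' deposited table.

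The 786 listed ratios ran from −2.80 to −0.59 with a median of −0.78, or 58.2% of control. At least 2-fold decreases were given for 189 genes (24.0%) in the authors' deposited table, at least 3-fold ones for 18 and at least 4-fold ones for 5. The genes nearest the listing minimum of 1.5-fold were CD109, METAP1, DCBLD2, NPM3 and CEP120, all at −0.59 in the authors' deposited table. Scores ran from 20.3 to 1096, and 509 genes (64.8%) scored at least 50. Of 19951 protein-coding genes in GENCODE release 29, 708 were listed (3.55%). That share is the background for the gene lists below, and it counts genes that PC3 cells may not express.

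**Figure D1:**
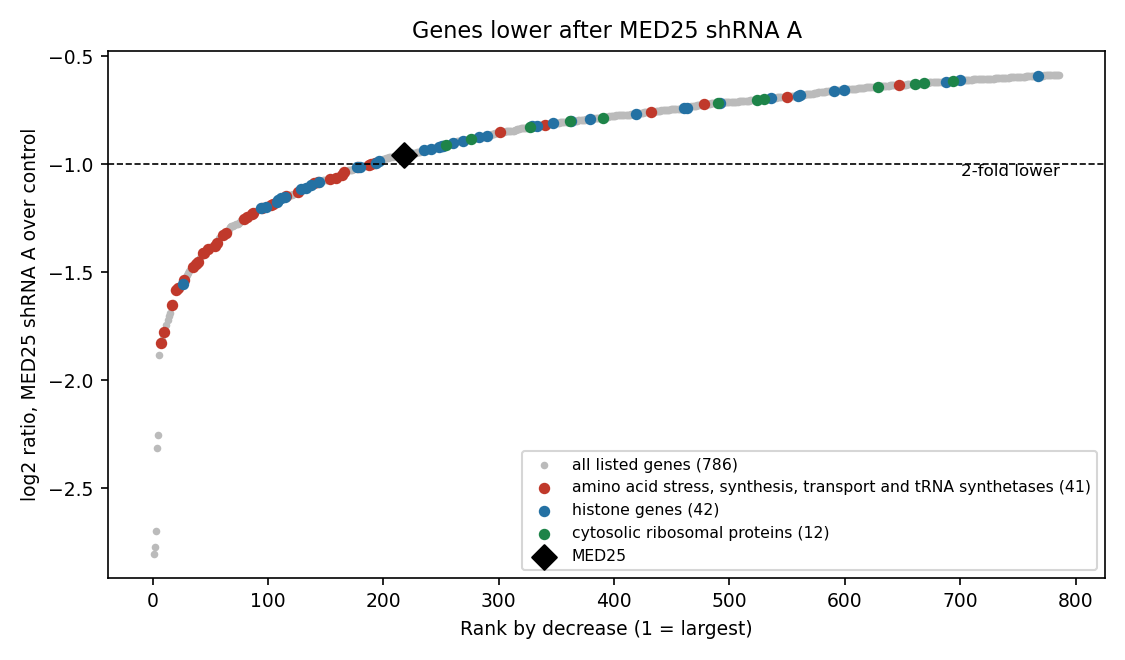
Log2 ratio of MED25 shRNA A over control (vertical axis) for the 786 listed genes in order of decrease (horizontal axis), as 1 point a gene with no error, since library values were not analysed here. Red points are the 41 listed genes of amino acid stress, synthesis, transport and tRNA charging, which sit mostly below the dashed 2-fold line, while the 12 ribosomal protein genes in green all sit above it.

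Among the 40 largest decreases 9 were amino acid genes, described further below, and the others had varied roles. AWAT2, a wax ester acyltransferase, was lowest at −2.80 in the authors' deposited table. ARC, an immediate early gene, followed the RNA-binding protein IGF2BP1 (−2.77) at −2.70 in the authors' deposited table. ZNF518A, a zinc finger gene, was at −1.81, or 28.4% of control, in the authors' deposited table. Several membrane and secreted proteins stood close behind. The bicarbonate transporter SLC4A10 was at −1.75, the Wnt receptor FZD8 at −1.72 and the serine protease PRSS12 at −1.70 in the authors' deposited table. For the neuronal adhesion protein SLITRK4, the authors' deposited table gave −1.57, and for carbonic anhydrase CA2 it gave −1.53. ULBP1, a ligand of the natural killer receptor NKG2D, and DDAH1, which degrades dimethylarginine, were both at −1.48 in the authors' deposited table. The remaining genes of the 40 largest decreases without a place in the groups below were the membrane-skeleton adaptor ANK2 at −1.77, the clone-named AP000783.2 at −1.57 and the RAS-like GTPase RASL11A at −1.47 in the authors' deposited table.

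Among the 10 highest scores, 4 belonged to genes among the 40 largest decreases (SDC1, IGFBP4, SEPN1 and FZD8). SLC35F2, a solute carrier, had the highest score, 1096, at a ratio of −1.38 in the authors' deposited table. SKP1, the adaptor of SCF ubiquitin ligases, had a score of 952 at −1.43 in the authors' deposited table. Syndecan-1 (SDC1) and the growth factor-binding protein IGFBP4 scored 950 and 936 at −1.88 and −1.52 in the authors' deposited table. These genes therefore combine a large decrease with a high score. The mitochondrial isoleucyl-tRNA synthetase IARS2 scored 780 at −1.33, and selenoprotein N (SEPN1) 544 at −1.56, in the authors' deposited table. The top 10 also held FZD8, the paraoxonase PON2 at −1.12, the complex I subunit NDUFB9 at −0.91 and the GTP synthesis enzyme IMPDH2 at 50.1% of control in the authors' deposited table. Of these 10 genes, SLC35F2 at −1.47 and SDC1 at −1.73 were also in the authors' deposited table for MED25 shRNA B, which used the same control libraries.

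Genes of the amino acid response were listed far above the background and with large decreases. Their lists were chosen with earlier results of these data known, so the high share is no independent support. When amino acids run short or unfolded protein accumulates, phosphorylation of the initiation factor eIF2 raises translation of ATF4. ATF4 then pairs with C/EBP factors at composite sites and induces enzymes that make amino acids, carriers that import them and synthetases that load them on tRNA. Of 90 genes in 4 such lists, the authors' deposited table listed 41 (45.6%), against 3.55% of all coding genes. Their median was −1.20, against −0.77 for the other 745 listed genes. At least 2-fold decreases were found in 34 of the 41 (82.9%) and in 155 of the 745 (20.8%).

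Among regulators, 11 of 22 were listed, 4 of them with a score of at least 50. The glutathione-degrading enzyme CHAC1 was lowest at −1.65, and the pseudokinase TRIB3 was at −1.46 in the authors' deposited table. JDP2, a bZIP repressor, was at −1.45, and the stress sensor SESN2 at −1.39 in the authors' deposited table. ATF4 itself was at −1.38 in the authors' deposited table. The C/EBP partners CEBPG and CEBPB were at −1.15 and −1.06, and the downstream factors ATF3 and DDIT3 (CHOP) at −1.20 and −1.05, in the authors' deposited table. NUPR1 was at −1.07, and PPP1R15A, the phosphatase subunit that reverses eIF2 phosphorylation, at −0.99 in the authors' deposited table. DDIT3 overlaps MARS and MBD6 on the opposite strand, so its reads cannot be told apart from theirs if counting ignored strand.

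Synthesis enzymes were listed for 9 of 22 genes, all of them lowered at least 2-fold. The serine pathway was represented by all its 3 steps, PHGDH at −1.36, PSAT1 at −1.23 and PSPH at −1.04 in the authors' deposited table. The mitochondrial folate enzymes SHMT2 and MTHFD2, which carry the one-carbon unit of serine, were at −1.41 and −1.53 in the authors' deposited table, and MTHFD1L of the same pathway lay just past the 2-fold line. Cystathionine synthase (CBS) was at −1.57, asparagine synthetase (ASNS) at −1.41 in the authors' deposited table, and mitochondrial PCK2 also lay just past the 2-fold line. The glycine cleavage genes AMT and GLDC, named after their values were seen, were at −0.71 and −0.59 in the authors' deposited table. Their scores of 21.6 and 24.9 were near the lowest of all listed genes (20.3).

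Amino acid carriers were listed for 8 of 26 genes, again all lowered at least 2-fold. The cationic carrier SLC7A1 was lowest, at −1.83 in the authors' deposited table. SLC7A5 and SLC7A11, the light chains of the large neutral and cystine carriers, were at −1.77 and −1.58, and their shared heavy chain SLC3A2 at −1.32, in the authors' deposited table. The neutral carriers SLC1A4, SLC1A5 and SLC38A1 were at −1.33, −1.19 and −1.01, and the glycine carrier SLC6A9 at −1.08, in the authors' deposited table.

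Cytosolic tRNA synthetases were listed for 13 of 20 genes, the highest share among the lists, leaving aside families defined by symbol. GARS was lowest at −1.48, and AARS, YARS and MARS lay between −1.25 and −1.23 in the authors' deposited table. CARS, TARS and IARS were at −1.18, −1.13 and −1.09 in the authors' deposited table. The other 6, among them EPRS, the nearest to the listing minimum at −0.63 in the authors' deposited table, were lowered less than 2-fold. Mitochondrial synthetases were listed for 2 of 17 genes, IARS2 and VARS2, the second at −0.69 in the authors' deposited table. XPOT, the exporter of tRNA from the nucleus and named after its value was seen, was at −1.14 in the authors' deposited table.

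**Figure D2:**
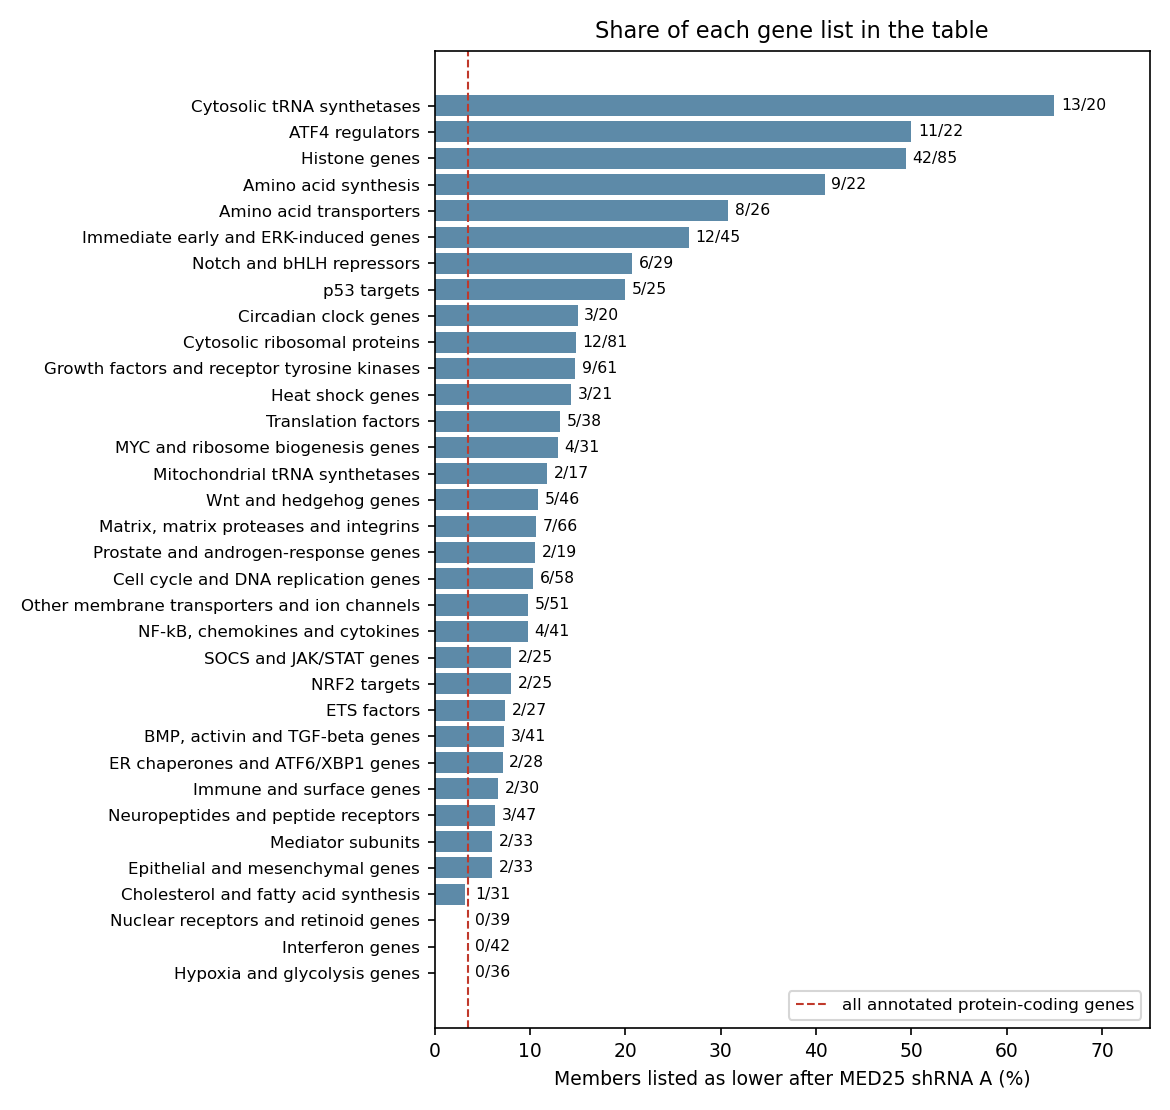
Percent of the members of each of 34 gene lists (rows) that the authors listed as lower after MED25 shRNA A (horizontal axis), with the number listed over the number of members beside each bar. The dashed line is the 3.55% of all annotated coding genes; the tRNA synthetases (13 of 20) and ATF4 regulators (11 of 22) reach farthest, and 3 lists have no listed member.

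Decreases of amino acid genes were large, but their scores were not. The 34 with at least a 2-fold decrease had a median score of 59.3, against 96.1 for the other 155 genes lowered that much. A score of at least 100 was reached by 3 of the 34 (8.82%) and by 74 of the 155 (47.7%). The 2 with the highest scores were SLC7A1 (137) and SLC38A1 (135) in the authors' deposited table, while CHAC1 had 54.4 and TRIB3 had 43.1.

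The upstream sequences of these genes were searched for the core of the ATF4 composite site, TGATGNAA, on both strands. Sequences were the 250 bases before the start site from RefSeq on GRCh38.p14, available for 34 of the 41 genes. The motif was present in 6 of the 34 (17.6%), in 350 of 15842 coding promoters (2.21%) and in 7 of 527 other listed coding genes (1.33%). The lists were chosen for the amino acid response, in which ATF4 acts, and their unlisted members were not counted apart. Whether the motif goes with the decrease was therefore not tested. The 6 stretches are shown because they place the motif beside genes that were lowered together. Capitals mark the motif, which reads TTGCATCA where it lies on the other strand, and each line runs 5′ to 3′ on the strand of the gene and ends before the start site.
CHAC1: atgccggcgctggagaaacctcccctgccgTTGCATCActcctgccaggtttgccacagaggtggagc
ASNS: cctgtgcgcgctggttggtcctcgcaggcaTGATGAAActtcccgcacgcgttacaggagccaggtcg
AARS: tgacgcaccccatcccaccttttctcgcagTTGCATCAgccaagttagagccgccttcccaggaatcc
ATF3: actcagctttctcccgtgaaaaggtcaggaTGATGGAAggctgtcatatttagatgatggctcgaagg
IARS: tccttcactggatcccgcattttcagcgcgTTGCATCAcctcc
MTHFD1L: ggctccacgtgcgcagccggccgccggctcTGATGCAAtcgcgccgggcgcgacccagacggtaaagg

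On GRCh38.p14 the CHAC1 stretch is chr15:40953232-40953299 on the plus strand and the ASNS stretch is chr7:97872439-97872506 on the minus strand. That of AARS is chr16:70289656-70289723 (minus), that of ATF3 chr1:212565186-212565253 (plus), that of IARS chr9:92293698-92293740 (minus) and that of MTHFD1L chr6:150866327-150866394 (plus). These coordinates are on a later build than the hg19 alignment of the reads. The motif ended 201 bases before the start site in CHAC1, 60 in ASNS, 179 in AARS, 183 in ATF3, 121 in MTHFD1L and 5 in IARS. All 4 of CHAC1, AARS, IARS and MTHFD1L carried the stricter form TGATGCAA, found in 93 of 15842 coding promoters (0.587%). No carrier promoter of the 7 available held the motif in this window, which says nothing of sites elsewhere in those genes. Other motifs were also more frequent in these 34 promoters than in all coding promoters. The ETS motif CCGGAAGT was in 4 of the 34 (11.8%), in 5.08% of all coding promoters and in 5.31% of the 527 other listed genes. The heat shock motif GAANNTTC was likewise in 4 of the 34 (11.8%), against 4.81% and 5.31%. These counts are small, and no difference between the motifs was tested.

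**Figure D3:**
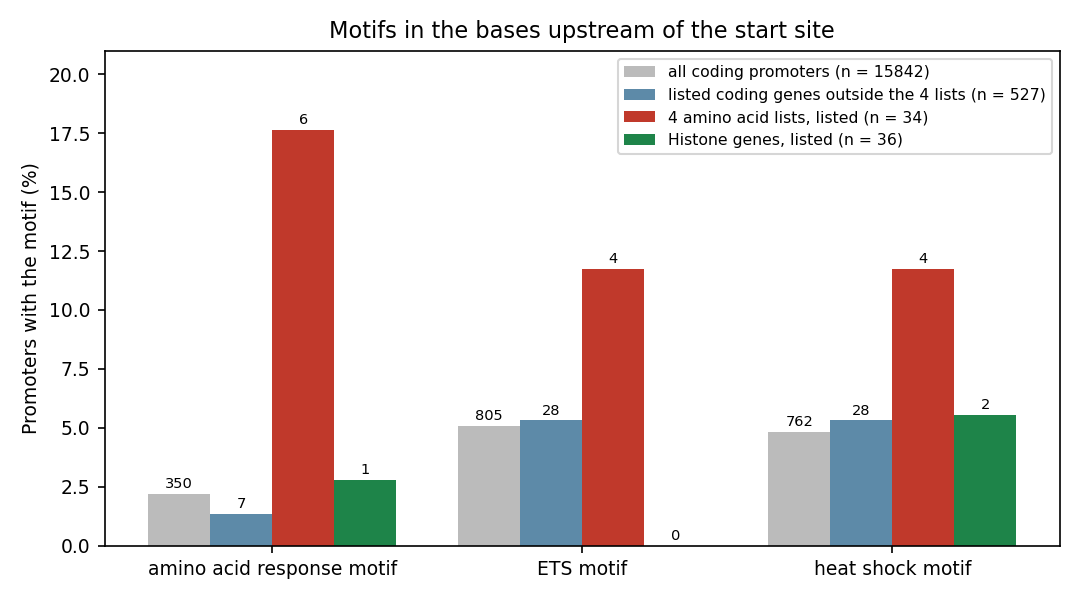
Percent of promoters (vertical axis) with each of 3 motifs in the 250 bases before the start site, for all coding genes, listed genes outside the amino acid lists, listed genes of those lists and listed histone genes, with the number of promoters holding the motif above each bar. The amino acid response motif is in 17.6% of the amino acid group and in 2.21% of all coding promoters, and the ETS and heat shock motifs are each in 11.8% of that group, above the 5.08% and 4.81% of all coding promoters.

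Of the same 90 genes, the authors' deposited tables listed 3 for MED25 shRNA B, which shares the control libraries, 22 for ETV4 shRNA A and 1 for ETV4 shRNA B. These tables are shorter, and they list 1.67%, 2.19% and 0.456% of all annotated coding genes. The 3 were PPP1R15A at −0.76, VARS at −0.68 and MTHFD1L at −0.59 in that authors' deposited table. CHAC1 was at −2.11 and PCK2 at −1.23 in the authors' deposited table for ETV4 shRNA A. CARS, at −0.72, was the one synthetase in the authors' deposited table for ETV4 shRNA A, and SLC7A5 and SLC3A2 were in none of the other 3 tables. The differences between shRNAs were not tested.

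**Figure D4:**
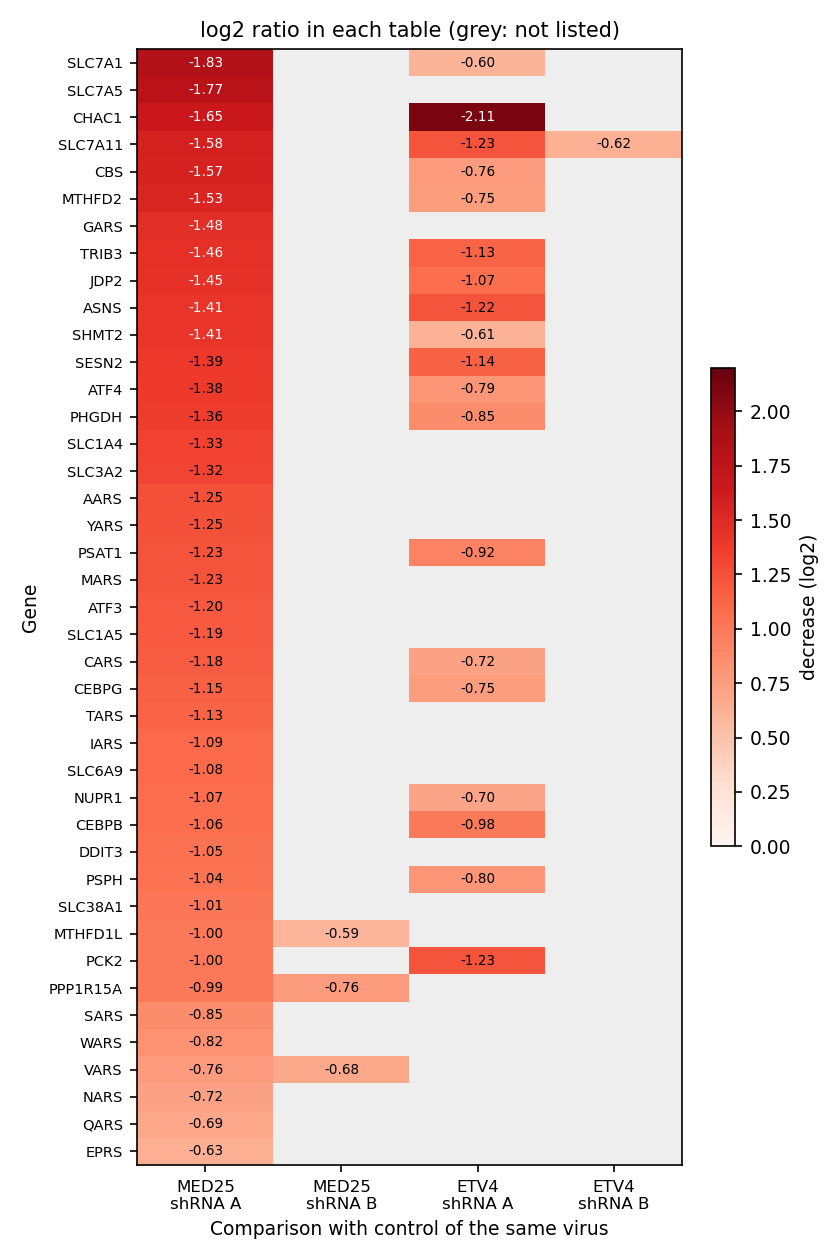
Log2 ratio over the control of the same virus for the 41 amino acid genes listed with MED25 shRNA A (rows), in each of the 4 comparisons (columns), with darker red for a larger decrease and grey where the gene is not listed. The first column is full by the choice of rows; CHAC1 at −2.11 is the darkest cell of the ETV4 shRNA A column, and most synthetase rows are grey outside the first column.

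The listed genes of the ribosome and of translation factors all had decreases below 2-fold. Of 81 cytosolic ribosomal protein genes, 12 were listed (14.8%), with a median of −0.71 and no 2-fold decrease. This family and that of mitochondrial ribosomal proteins were added after the data were seen. RPL12 was lowest at −0.91 with a score of 373, followed by RPS2 at −0.88 and RPL14 at −0.83 in the authors' deposited table. RPS6, the ribosomal protein phosphorylated downstream of mTOR, was at −0.72 in the authors' deposited table. Mitochondrial ribosomal proteins were listed for 4 of 78 genes (5.13%), near the 3.55% background. Among translation factors 5 of 38 were listed, with EIF1, which selects the start codon, at −0.95 and the eIF2 beta subunit EIF2S2 at −0.91 in the authors' deposited table. EIF4EBP1, the mTOR-controlled inhibitor of cap binding, was at −0.68 in the authors' deposited table. Ribosomal protein genes have many processed copies, so their single values are uncertain.

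Histone genes made up 42 of the 786 listed genes, out of 85 annotated. Replication-dependent histone genes are transcribed in S phase, and their messages usually end in a stem-loop instead of a poly(A) tail. All 5 histone types were represented. The listed genes were 11 of 26 for H2A, 11 of 18 for H2B, 8 of 18 for H3, 7 of 15 for H4 and 5 of 8 for H1. Their medians lay between −0.77 (H1) and −0.94 (H2A). In the authors' deposited table HIST1H4C was lowest at −1.55, and HIST1H3B and the linker histone HIST1H1E were at −1.20 and −1.16. In all, 13 of 42 (31.0%) were lowered at least 2-fold, against 24.0% of all listed genes. Of these 13, 12 had a score of 100 or more. The HIST1 cluster on chromosome 6 gave 36 of the 42. Of the same 85 genes, 24 were listed for MED25 shRNA B, which shares the control libraries, with a median of −0.70. For ETV4 shRNA A 9 were listed, and for ETV4 shRNA B 0. Those comparisons list 1.67%, 2.19% and 0.456% of all annotated coding genes. Near-identical copies can share reads, so the count of separate genes is uncertain.

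Cell cycle genes were a smaller group, with 6 of 58 listed (10.3%). The inhibitor CDKN2B was lowest at −1.46, and cyclin D1 (CCND1) was at −0.94 in the authors' deposited table. The mitotic genes PLK1, CCNB2 and CCNB1 were between −0.70 and −0.59, and E2F1 was at −0.61, in the authors' deposited table. FOXM1, an activator of mitotic genes, was at −0.60, and E2F7, a repressor of E2F target genes, at −0.87, both named after their values were seen, in the authors' deposited table. Also named after their values were seen, the recombination genes RAD50, RBBP8, PALB2 and BRCA2 were at −1.03, −0.84, −0.67 and −0.65 in the authors' deposited table. Their scores were 171, 116, 88.2 and 23.9, the last near the lowest of all listed genes (20.3). Recombination genes were not counted as a list, so no share of them can be given.

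Immediate early genes and ERK-induced genes were listed for 12 of 45 members (26.7%). ARC apart, ATF3 and KLF4 passed the 2-fold line, KLF4 at −1.11 in the authors' deposited table. IER5, PHLDA1, KLF6 and IER2 lay between −0.92 and −0.87 in the authors' deposited table. MYC and the ERK phosphatase DUSP4 were both at −0.70, and JUN was at −0.60, in the authors' deposited table. Among the 18 Kruppel-like factors, 4 were listed, namely KLF4, KLF6, KLF10 at −0.80 and KLF13 at −0.73 in the authors' deposited table. That family was added after the data were seen, and KLF4, KLF6 and KLF10 are already counted among the 12. The authors' deposited table for MED25 shRNA B, which shares the controls, listed 11 of the 45, against 1.67% of all annotated coding genes, with JUN at −1.41 and IER2 at −1.39.

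**Figure D5:**
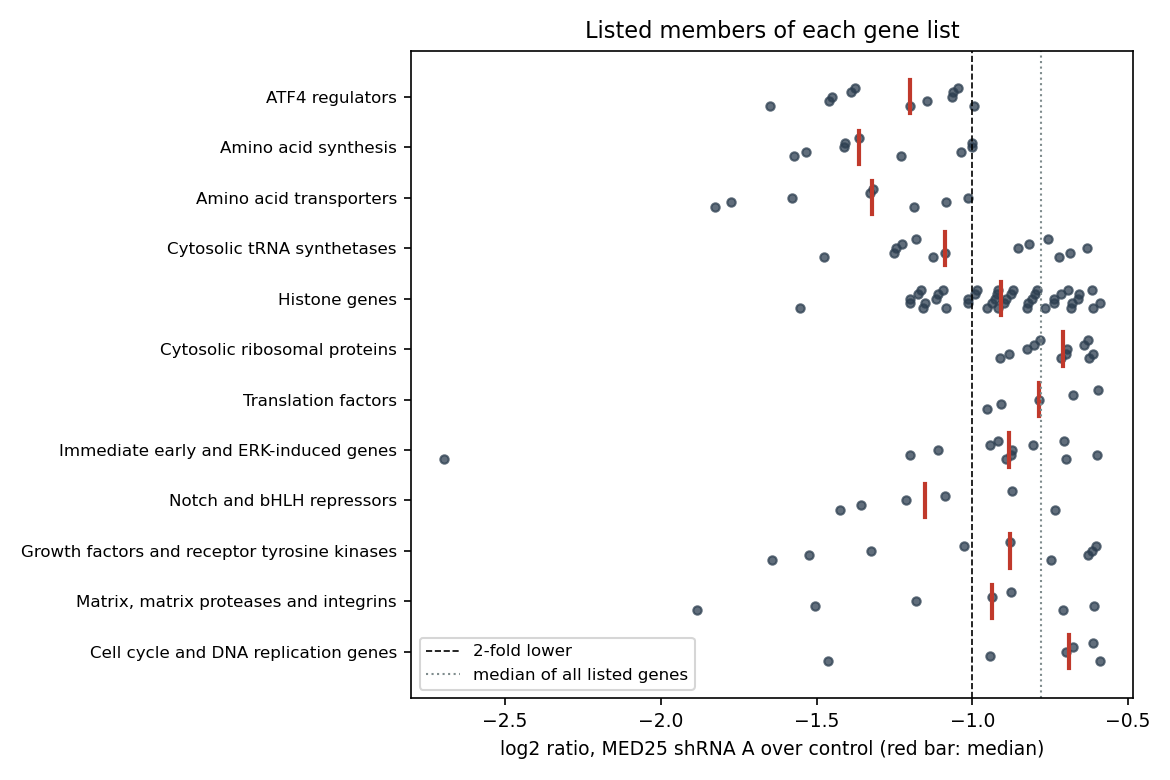
Log2 ratio of each listed member (points) of 12 gene lists (rows), with the median of each list as a red bar, the 2-fold line dashed and the median of all listed genes dotted. All listed enzymes of amino acid synthesis and all listed carriers lie at or left of the 2-fold line, whereas ribosomal proteins and translation factors lie right of it.

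Receptors, ligands and their effectors were listed across several pathways. In the Notch and bHLH group 6 of 29 were listed (20.7%). The ligands DLL4 and JAG1 were at −1.43 and −0.87, and the bHLH genes HEY1, BHLHE40 and HES6 at −1.36, −1.21 and −0.74, in the authors' deposited table. ID2, an inhibitor of bHLH factors, was at −1.09 in the authors' deposited table. DLL4 and CHAC1 are neighbouring genes on chromosome 15.

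Wnt and hedgehog genes were listed for 5 of 46 members (10.9%). FZD8 and the hedgehog-binding protein HHIP were the lowest, HHIP at −1.58 in the authors' deposited table. The receptors FZD4 and FZD6 were at −0.94 and −0.63, and AXIN1, a scaffold of beta-catenin destruction, at −0.67, in the authors' deposited table. Thus 3 of 10 Frizzled receptors were listed, a family added after the data were seen. FZD4 overlaps PRSS23 (−0.59) on the opposite strand, and counting without strand would mix the reads of this pair.

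Growth factors and their receptors were listed for 9 of 61 members (14.8%), of which 5 had a score of at least 50. The neurotrophin receptor NGFR was lowest at −1.64 in the authors' deposited table, followed by IGFBP4. The EGF receptor ligands AREG and BTC, neighbours on chromosome 4, were at −1.32 and −0.63 in the authors' deposited table. EFNB1 and EPHA2 were at −1.03 and −0.88, PDGFB and its family receptor PDGFRA at −0.75 and −0.62, and VEGFC at −0.60, in the authors' deposited table. Insulin receptor substrates IRS2 and IRS1, named after their values were seen, were at −1.38 and −0.95, and the related adaptor GRB10 at −0.61, in the authors' deposited table.

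Matrix genes, proteases and integrins were listed for 7 of 66 members (10.6%). After SDC1 came stromelysin MMP3 at 35.2% of control and fibronectin FN1 at −1.18 in the authors' deposited table. Integrin beta 5 (ITGB5), tenascin TNC, COL6A3 and the laminin LAMA4 were at −0.94, −0.88, −0.71 and −0.61 in the authors' deposited table. From 33 epithelial and mesenchymal genes, the repressors SNAI1 and SNAI2 were the 2 listed, at −1.28 and −0.66 in the authors' deposited table. Among the 5 CDC42 effector proteins, which bind septins, 3 were listed, and this family was added after the data were seen. CDC42EP1 was at −1.51, CDC42EP3 at −1.01 and CDC42EP2 at −0.64 in the authors' deposited table.

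Stress outside the amino acid response was listed more narrowly. Of 21 heat shock genes 3 were listed, the small heat shock protein CRYAB at −2.25, the inducible HSPA6 at −1.66 and the cochaperone BAG3 at −1.19 in the authors' deposited table. All 3 were also in the authors' deposited table for MED25 shRNA B. Of 28 endoplasmic reticulum chaperones and ATF6 or XBP1 genes, ERN1 (IRE1) and HERPUD1 were listed, at −0.75 and −0.67 in the authors' deposited table. Their scores were low, 20.6 and 30.2, where the lowest of all listed genes was 20.3. No BiP or GRP94 gene was listed. SLC7A11, described above among the carriers, is also an NRF2 target. Mitochondrial chaperones, named after their values were seen, included HSPA9 at −1.02 and TRAP1 at −0.65 in the authors' deposited table. None of 42 interferon genes, 36 hypoxia and glycolysis genes or 39 nuclear receptor and retinoid genes was listed, which sets no limit on smaller changes or on increases.

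Other transporters, peptide genes and clock genes were listed in small numbers. The list of other membrane transporters and ion channels had 5 of 51 genes listed (9.80%). KCNK15, a potassium channel, was the lowest of them at −1.69 in the authors' deposited table. Of 45 ABC transporters 5 were listed (11.1%), with ABCA8 and ABCA10 at −1.39 and −1.23 and the sterol exporter ABCG1 at −1.20 in the authors' deposited table. The ABC family was added after the data were seen. From the 47 neuropeptide genes 3 were listed, galanin (GAL) at −1.78, UTS2 at −1.19 and the receptor PROKR1 at −1.07 in the authors' deposited table. The clock list had 3 of 20 genes listed, BHLHE40 described above among them. The clock repressors NR1D1 (REV-ERB alpha) and PER2 were at −1.45 and −0.71 in the authors' deposited table. The NF-kB, chemokine and cytokine list had 4 of 41 genes listed (9.76%). CXCL2, IL8, CXCL3 and IL18 were at −1.22, −0.83, −0.78 and −0.59 in the authors' deposited table. From the prostate list, 2 of 19 were listed, STEAP1 at −0.88 and AMACR at −0.69 in the authors' deposited table.

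Further lists had few members in the table. Of 25 p53 targets 5 were listed, among them GADD45A at −0.95 and PMAIP1 at −0.82 in the authors' deposited table, and SESN2 belongs to the ATF4 regulators too. PC3 cells lack functional p53. Of 41 BMP, activin and TGF-beta genes 3 were listed, the BMP antagonist NOG at −1.57, INHBA at −0.93 and TGFBR3 at −0.87 in the authors' deposited table. Among 31 MYC and ribosome biogenesis genes 4 were listed, including RRS1 at −0.61 and RRP12 at −0.59 in the authors' deposited table. The 2 listed among 27 ETS factors were ETS1 at −0.67 and ETV1 at −0.64 in the authors' deposited table. The cytokine signal inhibitor SOCS2 and IL6R were the 2 listed among 25 SOCS and JAK/STAT genes, at −0.94 and −0.62 in the authors' deposited table. The complement regulator CD55 and DPP4 were the 2 listed among 30 immune and surface genes, at −0.69 and −0.64 in the authors' deposited table. Of 31 cholesterol and fatty acid genes, ABCG1 was the 1 listed.

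Of the 786 genes, 708 matched protein-coding genes, 32 were pseudogenes and 7 had no match. For 10 pseudogenes a gene whose name they carry in GENCODE 29 was listed too, and 4 of these are copies of the ribosomal protein genes RPL12, RPL10 and RPS4X. ATF4P4 was at −1.49 beside ATF4 at −1.38, and SKP1P1 at −1.19 beside SKP1 at −1.43, in the authors' deposited table. XPOTP1 and EIF2S2P4 were at −0.93 and −0.87 beside XPOT and EIF2S2 at −1.14 and −0.91 in the authors' deposited table. Such copies can take up reads of their parent, so the values of a pair may not be separate. Spans of 11 pairs of listed genes overlap in GENCODE 29, among them MTHFD2 with SLC4A5 (−0.80) and CDK14 (−0.96) with its antisense gene AC002456.2 (−2.31) in the authors' deposited table.

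Each ETV4 shRNA was compared with 2 libraries of a retroviral control, other than the control libraries of MED25 shRNA A. Why genes are shared was not tested. The authors' deposited tables for these hairpins share 112 genes in the case of ETV4 shRNA A, which is 14.2% of the 786 and 22.6% of the 495 listed there. For ETV4 shRNA B the number is 25, which is 3.18% of the 786 and 25.5% of 98. Beside these shares, MED25 shRNA A has 3.55% of all annotated coding genes listed, ETV4 shRNA A 2.19% and ETV4 shRNA B 0.456%. Those backgrounds count genes that PC3 cells may not express. The 4 amino acid lists supplied 19 of the 112 and 1 of the 25. Without these lists the shared genes are 93 (12.5% and 19.7%) and 24 (3.22% and 24.7%). The 112 genes had a median of −0.99 with MED25 shRNA A, against −0.76 for the genes not shared. Both ETV4 shRNAs listed 20 of the 786. Among them ABCA8 was at −1.39, SHISA3 at −1.28, the sulfotransferase CHST2 at −1.07 and the activin subunit INHBA at −0.93 after MED25 shRNA A, per the authors' deposited table. In the authors' deposited table for ETV4 shRNA A, these 4 were at −1.38, −1.60, −0.63 and −0.78. The virus receptor CXADR, per the authors' deposited tables, stood at −0.83 for MED25 shRNA A and at −1.71 for ETV4 shRNA A. The other 15 were IGF2BP1, AC002456.2, SDC1, ANK2, KCNK15, SLC7A11, NOG, RASL11A, HEY1, PROKR1, C4orf32, CDK14, SOCS2, RP11-736K20.5 and CD55. Chance sharing was not tested.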

How the data were processed

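The submitters' processing notes name Novoalign 3.08.02 and the hg19 build for the RNA-seq reads. How reads were counted, the use of strand, the annotation, the scaling and the test were not given in the sources used here. Tables deposited by the authors hold a log2 ratio per gene. They also hold a value headed as an adjusted p that the authors deposited on an unstated scale, used here as a score; a score of 20 would be 0.01 if it were 10 times the negative log10. MED25 ratios were turned to knockdown over control. No test was computed. Depth and replicate spread are unknown.

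Genes were matched to GENCODE 29 by identifier (752) or symbol (27), for type and neighbourhood. Members of 33 lists were counted over annotated members; 22 symbol families were added after the data were seen. Members and lists were chosen with earlier results of these data known, so patterns already seen are not independent support. Genes named are MED25, the 40 largest decreases, the 10 highest scores, listed list members, those nearest the minimum, neighbours and those shared with both ETV4 tables; others are marked. Promoters came from RefSeq (570 of 786 genes). The motif search was compared with a second search for the same pattern on simulated sequences, and recovery of planted motifs was not counted. Python 3.11.15, pandas 2.3.3, scipy 1.17.1 and matplotlib 3.10.9 were used. Alternatives were a 2-fold minimum, scores of at least 30 or 50, coding genes alone, no histones and a stricter motif. A result on 1 listed gene is not reported here.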

Additional observations from a re-analysis of the deposited data

How the results depend on the processing

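With a 2-fold minimum, 189 genes remained listed with MED25 shRNA A, of them 65 of the 134 members of the lists other than histones, and 21 of the 117 genes shared with an ETV4 shRNA. With a score of at least 50 the counts were 509 genes and 63 shared genes. At that score 96 list members were left, within 1.5 times of 134, while the ATF4 regulators went from 11 to 4 and the growth factors and receptors from 9 to 5. Keeping coding genes alone (708), leaving out histones (744) or a score of at least 30 (683) moved the count of genes by less than 1.5 times. The stricter motif was in 11.8% of the 34 promoters. No paired analysis was possible because the deposited tables hold no values of single libraries, and for the same reason no replicate could be left out. Depth limits could not be assessed.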

Other observations

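Listed coding genes were spread over the chromosomes, from 2.37% of annotated coding genes on X to 7.43% on chromosome 18, among chromosomes with more than 100 such genes. On chromosome 18, 20 of 269 coding genes were listed. CBLN2 was lowest there at −1.29 in the authors' deposited table, followed by CABLES1, a CDK-interacting protein, at −1.16 and the TFIID subunit gene TAF4B at 50.2% of control. The neighbouring genes CABLES1 and RBBP8 were both listed. Chromosome 6 held 68 of 1044 (6.51%) with histone genes and 32 (3.07%) without them. These shares were chosen after their values were seen and were not tested. Copy number of PC3 chromosomes was not analysed here.

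Transcription factors outside the lists, named after their values were seen, included SALL4 at −1.25, EOMES at −1.14, RUNX2 at −1.06 and SOX9 at −0.70 in the authors' deposited table. SOX9 is the coding neighbour of the potassium channel gene KCNJ2, which was at −0.90 in the authors' deposited table. Of 509 genes named ZNF, 16 were listed (3.14%), close to the 3.55% of all coding genes, and none of 386 olfactory receptor genes was listed. Of 23 genes named SNHG in GENCODE 29, which host small nucleolar RNAs, 5 were in the authors' deposited table, SNHG1 at −0.98 being the lowest. The 3.55% covers coding genes only, and no share was computed for noncoding genes. The 5 of 23 therefore have no background here. The ZNF, olfactory receptor and SNHG families were added after the data were seen. The gene that the table calls SNHG13, named DANCR in GENCODE 29 and so not among the 23, was at −0.91 in the authors' deposited table.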
